A study of Mus musculus with 2 samples.

Results

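Expression of 35 mouse genes of glycolysis and of the response to low oxygen was described in immune cells sorted from tumours. The members were named by symbol, and earlier results of these data were known when they were chosen. They were 20 glycolysis genes (Slc2a1, Hk1, Hk2, Gpi1, Pfkl, Pfkp, Pfkfb3, Pfkfb4, Aldoa, Aldoc, Tpi1, Gapdh, Pgk1, Pgam1, Eno1, Eno2, Pkm, Ldha, Pdk1 and Slc16a3) and 15 hypoxia target genes (Bnip3, Bnip3l, Egln1, Egln3, Ankrd37, Ero1a, Ndrg1, Vegfa, Adm, P4ha1, P4ha2, Kdm3a, Mif, Hilpda and Higd1a). All 35 were found among the 33696 mouse genes of the count matrix, of which 24894 had at least 1 read molecule in the cells used. Glycolysis splits glucose into pyruvate in the cytosol, and lactate leaves the cell when pyruvate is not passed on to the mitochondria. When oxygen is scarce, the prolyl hydroxylases stop marking the transcription factor HIF for destruction, and HIF then switches on most glycolytic genes together with genes for vessel growth, mitophagy and collagen processing. Tumours have poorly perfused regions, and macrophages in such regions are known for this response. Activated T cells also raise glycolysis.

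The cells came from subcutaneous tumours of MC38, a colon carcinoma line of the mouse, in hosts that carry human Fc gamma receptors. Each mouse received 2000000 tumour cells and later 2 injections, 3 days apart, of 100 µg of an antibody against mouse GITR, a receptor of T cells, with a human IgG1 Fc part, or the control. The control is called PBS in the series text and Untreated in the cell table. CD45+ cells, which are immune cells, were sorted 4 days after treatment. The cell table names N297A an agonist with a null Fc part, GA-aFuc an agonist with an enhanced Fc part, and GITR/Syn GA-aFuc a non-agonist with an enhanced Fc part; the meaning of Syn, like the age and sex of the mice, is not stated. All 6 mice of the library share the host genotype, the tumour line and the sort, so no group lacks the tumour or the human receptors. Each hashtag was taken as 1 mouse, which gave 1 mouse each for GA-aFuc and for GITR/Syn GA-aFuc, 2 for N297A and 2 Untreated, whereas the series text gives 3 mice per treatment. P-values below measure the spread between these mice within 1 library.

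The data are counts of unique molecular identifiers (UMIs, each standing for 1 captured RNA molecule) from a 10x Genomics 3' library. The 8716 cells used held 16479710 to 19339165 mouse UMIs per mouse, with a median of 11259 to 12940 UMIs per cell. The deposited names gave 4104 macrophages and 2486 monocytes, among lymphocytes 907 CD8 T cells, 97 CD4 T cells, 74 Tregs (the regulatory T cells) and 723 NK cells, and among dendritic cells 200 cDC2, 47 cDC1, 57 mregDC and 21 pDC. Levels below are in CPM, the UMIs of a gene among 1000000 mouse UMIs of a mouse and cell type, and per-mouse values follow the order Untreated 1, Untreated 2, N297A 1, N297A 2, GA-aFuc and, last, GITR/Syn GA-aFuc. The names were checked against marker sums, and not every list was highest in its own type. The monocyte markers summed to 9352 CPM in pDC, above monocytes, and to 2929 in CD8 T cells. The CD4 T cell markers summed to 1127 in CD4 T cells and 1181 in CD8 T cells. CD4 T cells also held 2166 CPM of the CD8 T cell markers. The macrophage markers summed to 24956 CPM in macrophages and 12107 in monocytes, the monocyte markers to 5648 in monocytes and 266 in macrophages, the CD8 T cell markers to 3883 in CD8 T cells, and the NK markers to 1330 in NK cells against 270.1 in CD8 T cells. Markers of tumour epithelium summed to 0.202 in macrophages and 51.3 in cDC2, with Krt19 and Cldn4 at 0 in both. Free RNA, read from 163454 barcodes with 10 to 100 UMIs and no cell name, gives the level of a gene within spilled RNA itself. A cell would reach it by spill only if all its UMIs were spilled, and the spilled share of a cell was not measured. Near-identical copies of members have features of their own: a second Aldoa entry held 20 UMIs against 85306, and Eno1b held 1188 against 15846 for Eno1, so Eno1 may be undercounted.

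Glycolysis genes took the largest share in macrophages, monocytes and CD8 T cells and a smaller one in dendritic cells and NK cells. The 20 genes summed to 6718 ± 649 CPM in macrophages (SD, n = 6 mice), 6457 ± 825 in CD8 T cells and 6373 ± 578 in monocytes. Tregs had 5867 ± 550.1, cDC1 5529 ± 784, CD4 T cells 4605 ± 957, cDC2 4294 ± 316 and NK cells 4238 ± 356. The lowest sums were 3182 ± 789.6 in mregDC and 2376 ± 837 in pDC. Within mice, macrophages had a higher glycolysis sum than cDC1 and NK cells in all 6. Monocytes were higher than CD8 T cells in 2 of 6 mice, and cDC2 higher than NK cells in 3 of 6, so the order of these neighbours is not resolved. The 15 hypoxia target genes followed another order, with 2015 ± 139.8 in CD8 T cells, 1888 ± 522 in Tregs, 1709.9 ± 187 in macrophages, 1693 ± 205 in monocytes and 1614 ± 137 in NK cells. CD4 T cells had 1438 ± 370.5, cDC1 1204 ± 252, cDC2 1138 ± 127, mregDC 939 ± 234 and pDC 588 ± 241. A few genes carried most of the glycolysis sum. UMIs are counted at the 3' end and do not grow with gene length, and in macrophages Gapdh gave 26.6% of the glycolysis UMIs, Pkm 12.5%, Aldoa 12.1% and Ldha 11.9%. Mif alone gave 44.5% of the hypoxia target UMIs in macrophages, 41.1% in CD8 T cells and 26.3% in Tregs. In CD8 T cells Hilpda gave a further 17.1% and Higd1a 15.1%. The order of the hypoxia target sums thus rests largely on a few genes and does not rank the types by the response as a whole.

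**Figure D1:**
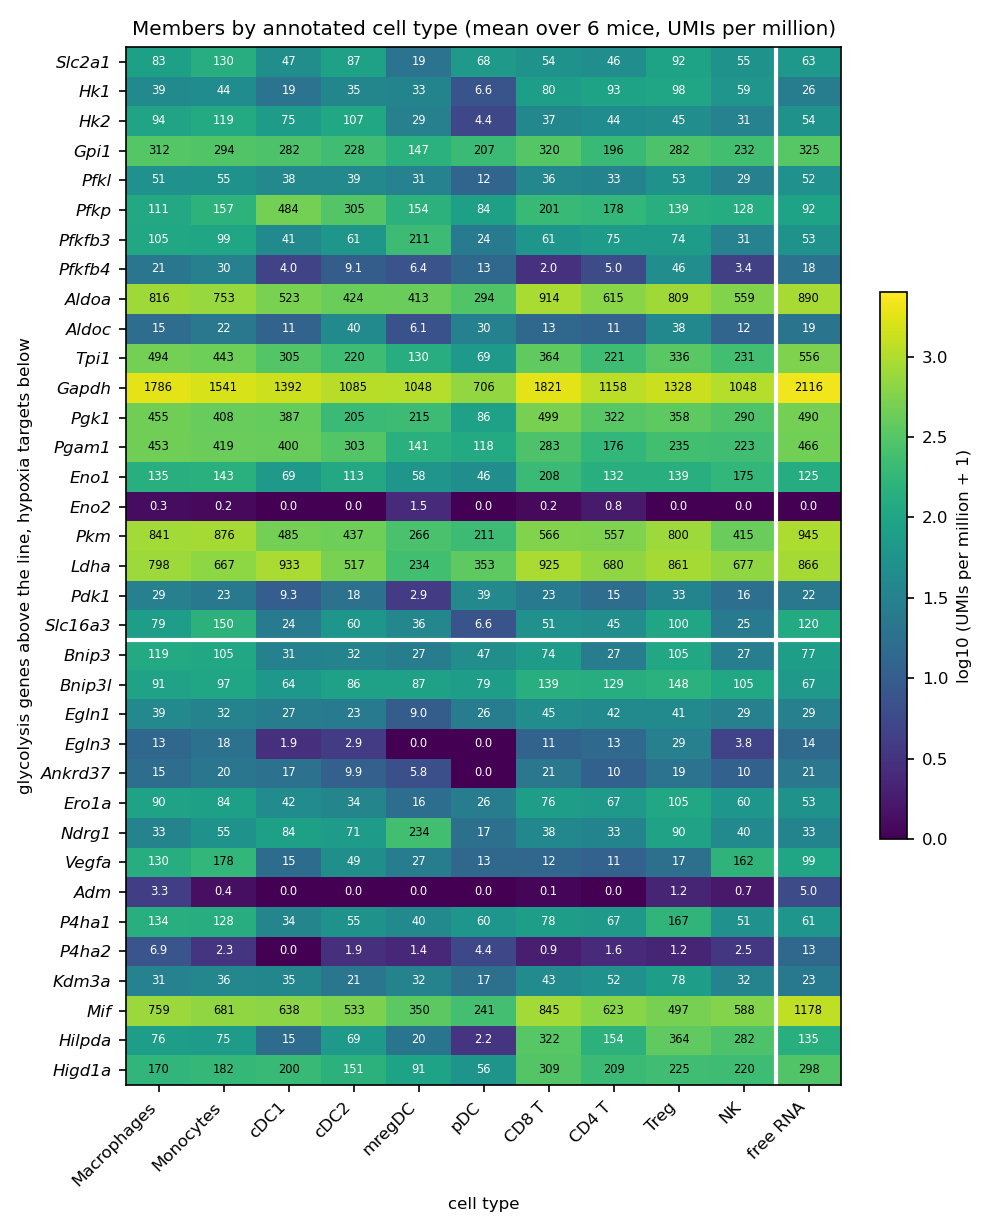
Heat map of the mean level of each of the 35 genes (rows, grouped into glycolysis and hypoxia targets) in 10 deposited cell types and in free RNA (columns), in CPM on a logarithmic colour scale. Gapdh has the highest level in every column, whereas Vegfa is above 90 only in monocytes, NK cells, macrophages and free RNA.

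Entry of glucose and its first steps were described gene by gene, since a sum hides them. Slc2a1 (the glucose transporter GLUT1, ENSMUSG00000028645) was at 129.6 ± 12.9 CPM in monocytes, 83.1 ± 18.6 in macrophages and 54.2 ± 9.05 in CD8 T cells, and 62.9 in free RNA. The hexokinases, which phosphorylate glucose, were split between lineages: Hk2 stood at 119 in monocytes and 37.1 in CD8 T cells, whereas Hk1 stood at 44.3 and 80.3. Among the phosphofructokinases, which commit the sugar to glycolysis, Pfkp was highest in cDC1 (484) and cDC2 (305), and Pfkl stayed between 11.9 in pDC and 55.2 in monocytes. Pfkfb3 and Pfkfb4 make the activator of phosphofructokinase. Pfkfb3 was highest in mregDC, the mature migratory dendritic cells, at 211. The highest mean of Pfkfb4 over mice was 45.8 in Tregs, against 29.5 in monocytes. The Treg mean rests on 14 UMIs in 74 cells, with as few as 3 cells in a mouse. With cells thinned to the same number of UMIs, 4.11% of Tregs and 6.04% of monocytes had a Pfkfb4 UMI. Which of these types was highest is thus not resolved. The isomerase Gpi1 ranged from 147 in mregDC to 319.7 in CD8 T cells. Of the later enzymes, Tpi1, Pgk1, Pgam1 and Eno1 ranged from 46.0 (Eno1 in pDC) to 499 (Pgk1 in CD8 T cells). Aldoc, the second aldolase, was at or under 39.6, and Eno2, the neuronal enolase, at or under 1.53. At the end of the pathway, Ldha, which makes lactate, was at 933 in cDC1, 925 in CD8 T cells and 798 in macrophages. Slc16a3 (the lactate exporter MCT4) was at 149.6 in monocytes and 25.3 in NK cells, and Pdk1, which closes the mitochondrial gate for pyruvate, at or under 38.6.

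Among the hypoxia targets, Vegfa was high in myeloid cells and NK cells, and Hilpda in T cells and NK cells. Vegfa, the vessel growth factor, was at 178 ± 29.4 CPM in monocytes, 162 ± 30.5 in NK cells and 130.1 ± 31.9 in macrophages, with at most 48.9 (cDC2) in the other 7 types and 99.3 in free RNA. After each cell was thinned to 2000 UMIs, 27.2% of NK cells, 25% of monocytes and 20.2% of macrophages had a Vegfa UMI, against 1.76% of CD8 T cells; without thinning the shares were 62.9%, 56.8%, 58.0% and 7.61%. Hilpda, which sits on lipid droplets and blocks fat breakdown, had its highest levels in lymphocytes, with 364 ± 279 in Tregs, 322 ± 85.1 in CD8 T cells and 282 ± 47.3 in NK cells, against 76.4 ± 35.02 in macrophages and 135 in free RNA. The Treg value rests on 74 cells and its SD is wide. In thinned cells 39.4% of CD8 T cells, 38.4% of Tregs, 27.0% of NK cells and 11.1% of macrophages had a Hilpda UMI (71.4%, 66.2%, 54.5% and 31.9% without thinning). Bnip3 and Bnip3l tag mitochondria for removal. Bnip3 was at 119 in macrophages and 27.3 in NK cells, and Bnip3l was between 64.0 in cDC1 and 148 in Tregs. Ndrg1, a stress gene, was highest in mregDC at 234. The oxygen sensors Egln1 and Egln3 stood at 38.7 and 12.6 in macrophages, and Ero1a, an oxidase of the endoplasmic reticulum, at 90.1. P4ha1, a collagen prolyl hydroxylase, was at 134 in macrophages, its relative P4ha2 at 6.88 (free RNA 13.0). Kdm3a, a histone demethylase, ranged from 17.1 to 77.5, and Higd1a, a mitochondrial protein, from 55.8 to 309. Ankrd37 was at or under 21.4, and Adm, the vessel peptide adrenomedullin, at or under 3.27. Mif, a cytokine, was below its free RNA level of 1178 in every type, with 845 in CD8 T cells at most; the part of spilled RNA in its levels was not tested.

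The members were high and low in the same deposited clusters of macrophages, and 3 clusters stood apart. Clusters were made from the same counts and the 3 were picked for their values, so what follows is a description with no test. Clusters 9, 39 and 11 (227, 113 and 218 cells) had glycolysis sums of 15473, 16684 and 12195 CPM, against 4405 to 7736 in the 20 other clusters of at least 30 cells. Their hypoxia target sums were 5796, 4953 and 3322, against at most 2022. They made up 13.6% of the macrophages and held 23.9% of the glycolysis UMIs and 29.8% of the hypoxia target UMIs of that type. Mif alone gave 44.5% of the hypoxia target UMIs of all macrophages, so single genes are given below. Over all 23 clusters the 2 sums had Pearson's r = 0.976 and Spearman's rho = 0.884, and over the 20 others r = 0.843 and rho = 0.826; the points share 1 library and the same 6 mice. In the 15 monocyte clusters rho was 0.943, with the highest sums in cluster 8 (9808 for glycolysis, 2647 for hypoxia targets) and the lowest in cluster 42 (2851 and 688).

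**Figure D2:**
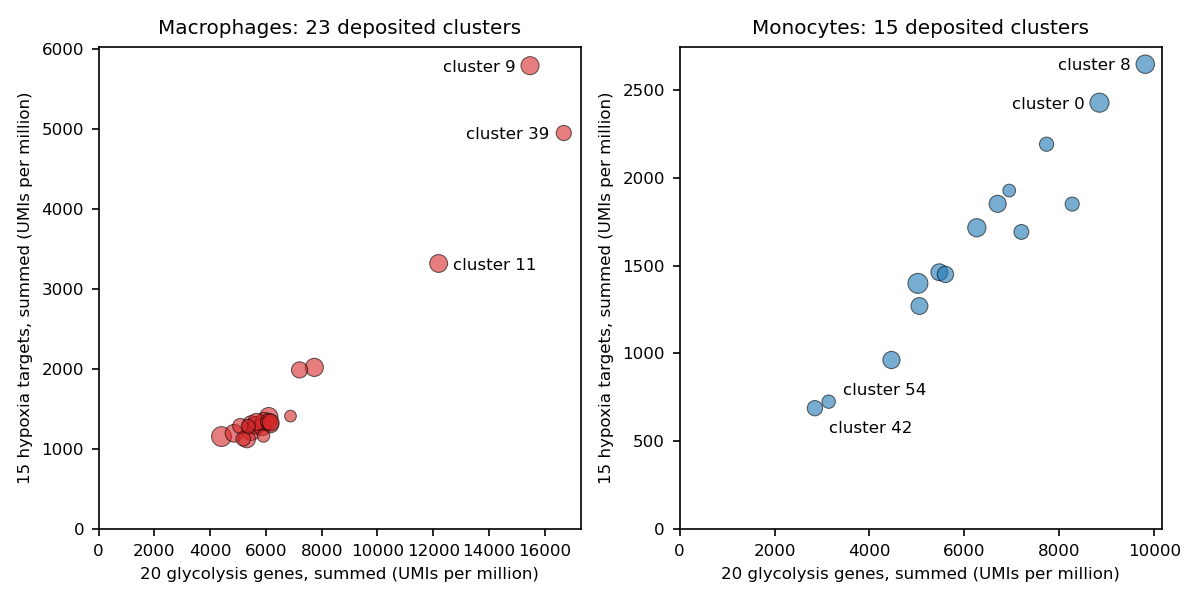
Sum of the 20 glycolysis genes (horizontal axis) against the sum of the 15 hypoxia target genes (vertical axis), both in CPM, for deposited clusters of at least 30 cells in macrophages and monocytes; point size follows the number of cells. Macrophage clusters 9, 39 and 11 lie at 12195 or more on the horizontal axis and at 3322 or more on the vertical axis, apart from every other cluster.

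Several hypoxia targets set these clusters apart by large ratios, and others by ratios like those of the enzymes. Ero1a had 742, 415 and 163 CPM in clusters 9, 39 and 11, against 31.8 to 73.3 (median 45.1) in the 20 others. Egln3 had 105, 85.5 and 36.3 against 0.672 to 15.4 (median 4.13). Ndrg1 had 316, 154 and 64.4 against 6.61 to 27.5 (median 14.9). For these 3 genes all 3 clusters lay above all others, and cluster 9 was 16.5, 25.4 and 21.2 times the median of the others. Bnip3 had 544, 571 and 349 against 38.8 to 154 (median 70.2), and P4ha2 had 35.1, 55.1 and 28.7 against 0.693 to 12.9 (median 2.08). Adm, nearly absent elsewhere, had 66.2, 13.4 and 1.22 against 0 to 1.71 (median 0.350), and 91.0% of its 212 macrophage UMIs lay in the 3 clusters. The share was 62.7% for Egln3, 59.2% for Ndrg1, 52.3% for Ero1a and 49.9% for Hilpda. Hilpda was high in clusters 9 and 39 (630.3 and 276) but its 127 in cluster 11 lay inside the range of the others, 11.9 to 166 (median 28.8). The ratio of cluster 9 to the median of the others was smaller for Bnip3l (3.17), Kdm3a (2.85), Mif (2.84), Higd1a (2.60) and P4ha1 (2.41).

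Among the glycolysis genes, the glucose transporter and Hk2 had the largest ratios in cluster 9. Slc2a1 had 492, 252 and 153 CPM in clusters 9, 39 and 11, against 31.8 to 71.7 (median 53.6), and Hk2 had 354, 209 and 143 against 35.01 to 117 (median 73.0). Both were highest in cluster 9, at 9.19 and 4.85 times the median of the others. Pgk1 had 1134, 1452 and 1081 against 255 to 537 (median 351), and Gapdh 3902, 4395 and 2849 against 1074 to 2119.7 (median 1606). Gpi1, Pfkl, Aldoa, Tpi1, Gapdh, Pgk1, Pgam1, Eno1, Pkm, Ldha and Slc16a3 were all highest in cluster 39 instead. Pfkfb4 was below all others in clusters 9 and 39, with 13.6, 13.4 and 22.3 against 14.96 to 30.6 (median 21.0), and Pfkfb3 was above all others in cluster 9 only, with 234, 142 and 99.3 against 44.6 to 157 (median 103). In 28 of the 35 genes all 3 clusters lay above all 20 others, and the exceptions were Pfkfb3, Pfkfb4, Eno2, Vegfa, Adm, Kdm3a and Hilpda. The 3 clusters were picked for the sums of these same genes, and the share over all mouse genes was not computed. The count therefore does not set the members apart from other genes. Vegfa had 378, 229.6 and 264, and cluster 39 lay inside the range of the others, 15.9 to 262 (median 94.6).

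**Figure D3:**
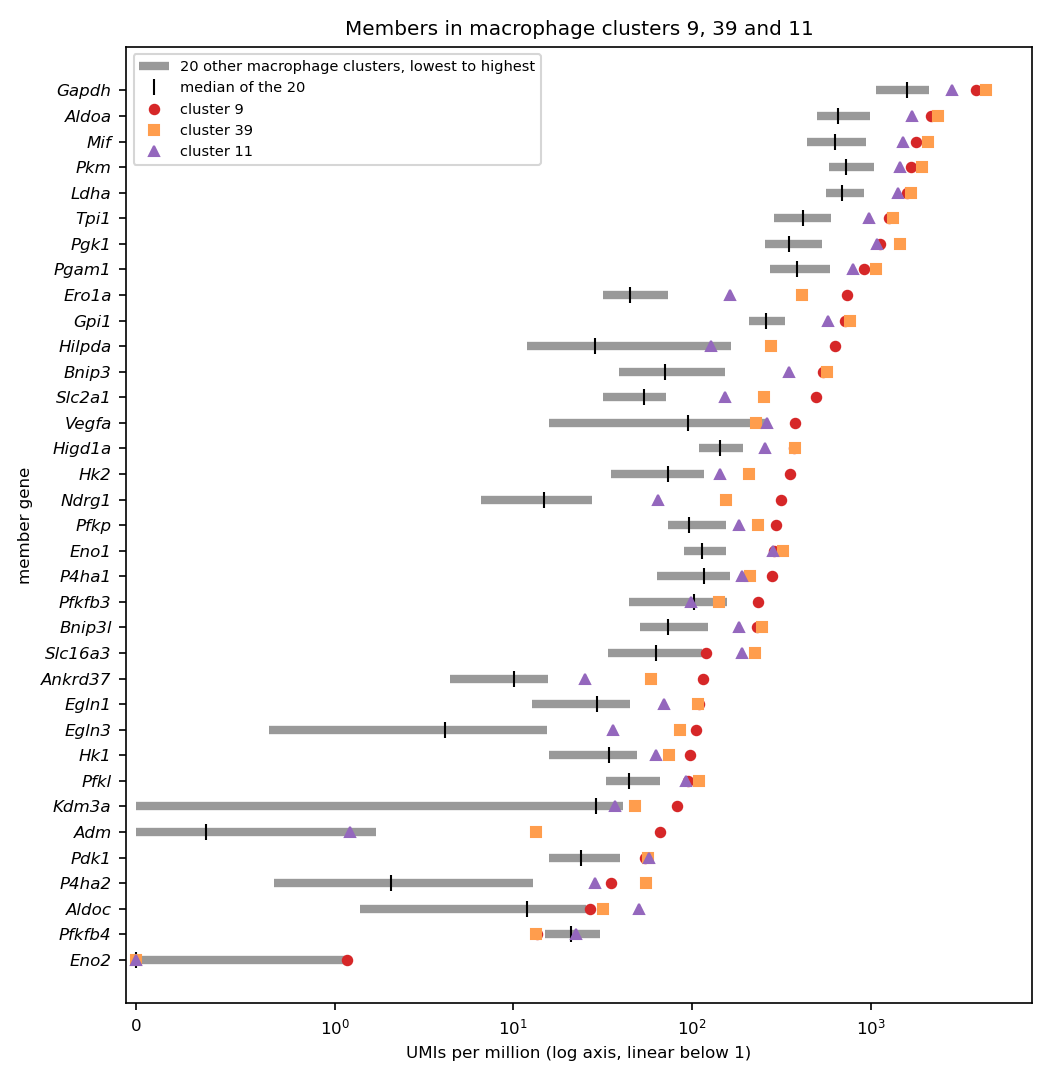
Level of each member (rows) in macrophage clusters 9, 39 and 11 (coloured points) beside the range over the 20 other clusters (grey line, with its median), in CPM on a logarithmic axis. Points of Egln3, Ndrg1, Ero1a, P4ha2 and Slc2a1 lie well to the right of the grey range, and those of Pfkfb4 within or left of it.

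In cluster 9, Ero1a was at 380.0, 557, 780.1, 705, 998 and 788 CPM and Egln3 at 87.3, 105, 120.2, 82.7, 115 and 104. Slc2a1 was at 323, 414, 607, 447, 540.4 and 530.5, and Bnip3 at 555, 513, 568, 460.1, 617 and 527. Every mouse was above the highest other cluster for these 4 genes. Cluster 11 was less uniform: its Egln3 was at 8.97, 40.9, 38.2, 32.2, 44.7 and 46.4 and its Ndrg1 at 13.5, 79.8, 76.5, 57.2, 64.7 and 85.9, and Untreated 1 lay inside the range of the 20 others for both. The 3 clusters held 9.70%, 13.8%, 13.9%, 11.7%, 15.2% and 16.7% of the macrophages, with the 2 highest shares in the mice given an Fc-enhanced antibody (the last 2). Cluster 9 rests on 19 cells in Untreated 1 and 57 in the GITR/Syn GA-aFuc mouse. The clusters also differed in other measures. The median UMIs per cell were 11428, 13119 and 14793 in clusters 9, 39 and 11, and 15222 over all macrophages. Mitochondrial genes took 1.24%, 1.45% and 1.73% of UMIs, against 1.79% to 2.21% in the 20 others. Macrophage markers summed to 15711, 21009 and 24505, where the others ranged from 17922 to 40805. Monocyte markers summed to 534, 482 and 313, against 117 to 498 in the others, so that among these clusters cluster 9 had the lowest macrophage and the highest monocyte marker sum. The part of these measures in the pattern was not tested.

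The 250 bases before the transcription starts of the members were searched for ACGTG, the core of the element to which HIF binds, on either strand (CACGT on the strand shown). The members were chosen as glycolysis genes and hypoxia targets, so a high share of windows with the motif could follow from that choice. The search therefore says nothing about the clusters. RefSeq entries on the mouse build GRCm38.p6 gave 47 windows for 33 members, with Bnip3l and Ndrg1 having no entry used. The motif was in 20 windows, 42.55%, of 18 genes, against 16.57% of all 32851 windows of this length. Member windows were rich in G and C; among windows of at least 60% GC the shares were 69.23% of 26 and 23.03% of 9178. ACGTG is part of the E-box CACGTG, which matches on both strands and counts as 2 matches, so the same letters also serve other factors. A match describes letters and shows no binding. The windows below belong to genes with some of the largest ratios in cluster 9 or the most matches, each given 5′ to 3′ along the gene's strand with the matches in capitals (Egln3 chr12:54203875-54204124, minus strand; Ero1a chr14:45318573-45318822, minus strand; Bnip3 chr7:138909507-138909756, minus strand; Slc2a1 chr4:119108495-119108744, plus strand; Ankrd37 chr8:45999851-46000100, minus strand; Ldha chr7:46845554-46845803, plus strand).
Egln3: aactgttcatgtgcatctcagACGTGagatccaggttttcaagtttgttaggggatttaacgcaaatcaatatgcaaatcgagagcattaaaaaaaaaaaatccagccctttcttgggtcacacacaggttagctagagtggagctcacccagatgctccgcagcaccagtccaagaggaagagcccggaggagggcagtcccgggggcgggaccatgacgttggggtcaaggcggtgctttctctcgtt
Ero1a: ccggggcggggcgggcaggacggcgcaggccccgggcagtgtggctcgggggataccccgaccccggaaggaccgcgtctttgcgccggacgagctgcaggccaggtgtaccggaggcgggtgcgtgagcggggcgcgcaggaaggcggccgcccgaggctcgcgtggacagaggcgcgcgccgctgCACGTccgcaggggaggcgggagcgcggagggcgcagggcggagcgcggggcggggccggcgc
Bnip3: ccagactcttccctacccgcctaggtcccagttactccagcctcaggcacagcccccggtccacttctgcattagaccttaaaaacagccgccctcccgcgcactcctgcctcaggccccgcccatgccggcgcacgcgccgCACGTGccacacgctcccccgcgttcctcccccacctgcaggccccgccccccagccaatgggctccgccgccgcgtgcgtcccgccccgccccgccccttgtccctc
Slc2a1: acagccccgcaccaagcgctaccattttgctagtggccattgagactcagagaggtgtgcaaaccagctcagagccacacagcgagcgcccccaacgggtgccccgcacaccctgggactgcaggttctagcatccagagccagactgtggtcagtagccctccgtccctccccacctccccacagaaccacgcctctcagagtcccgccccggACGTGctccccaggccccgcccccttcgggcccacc
Ankrd37: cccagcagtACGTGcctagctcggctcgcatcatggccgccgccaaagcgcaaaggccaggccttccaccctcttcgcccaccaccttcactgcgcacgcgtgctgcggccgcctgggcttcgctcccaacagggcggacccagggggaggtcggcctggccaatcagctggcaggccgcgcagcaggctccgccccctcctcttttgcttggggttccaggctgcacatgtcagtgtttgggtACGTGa
Ldha: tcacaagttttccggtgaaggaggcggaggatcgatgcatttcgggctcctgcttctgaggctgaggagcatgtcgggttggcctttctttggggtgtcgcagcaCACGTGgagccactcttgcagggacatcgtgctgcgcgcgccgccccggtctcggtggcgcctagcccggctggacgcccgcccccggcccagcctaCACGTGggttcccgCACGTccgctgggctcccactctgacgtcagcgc

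In these windows Egln3, Ero1a and Slc2a1 each hold 1 match, Ankrd37 holds 2, Bnip3 holds 1 E-box, and Ldha holds 2 E-boxes and 1 further match. No match was found in the windows of Hk1, Gpi1, Pfkl, Pfkp, Pfkfb4, Aldoc, Tpi1, Gapdh, Eno1, Eno2 or Pdk1. The windows of Adm, Kdm3a, Mif and Higd1a had none either. Whether matches go with the levels in the clusters was not tested.

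Macrophages and monocytes were compared first, as the 2 largest populations of the same tumours. Glycolysis and hypoxia genes were more often lower than higher in macrophages. Of 33 members tested, 17 were lower and 5 higher at an adjusted p under 0.05, where 29.2% and 29.6% of all 11958 genes were lower and higher (58.8% in all). Each difference is a log2 change from the model, relative to scaled library sizes, with its standard error, and p-values were adjusted over all genes by the Benjamini-Hochberg method (edgeR). The median difference was -0.16 over the members and 0.02 over all genes. Eno2 and Adm were too low to be tested.

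The smallest adjusted p was in lactate export. Slc16a3 was at 60.8, 88.2, 78.1, 73.5, 82.3 and 90.2 CPM in macrophages and 129.5, 149, 152, 134, 159 and 175 in monocytes. Every monocyte value lay above every macrophage value, and the log2 difference was -1.02 ± 0.05 (SE), adjusted p = 9.72e-14. Slc2a1, the glucose transporter, was at 54.5, 78.3, 93.6, 71.4, 105 and 95.4 and 119.7, 114, 127, 131, 151 and 135. The groups did not overlap here either, at -0.76 ± 0.09 (SE), adjusted p = 2.88e-05. Pfkp was at 104, 114, 118, 101, 121 and 108 and 151, 137, 168, 149, 184 and 155, again without overlap, at -0.60 ± 0.05 (SE), adjusted p = 6.94e-10. Hk2 was at 85.5, 84.2, 98.8, 86.1, 119.9 and 91.7 and 131, 100.2, 125, 111, 143 and 107. The ranges overlapped, but macrophages were lower within each of the 6 mice, at -0.44 ± 0.05 (SE), adjusted p = 2.27e-07. Pfkfb4 was at 22.0, 18.6, 21.3, 19.5, 19.8 and 23.2 and 32.4, 28.5, 31.6, 26.2, 30.1 and 28.4, without overlap, at -0.61 ± 0.07 (SE), adjusted p = 3.03e-07. Aldoc was at 15.1, 16.9, 14.3, 14.3, 16.03 and 15.9 and 17.2, 24.7, 24.4, 16.5, 25.2 and 24.6, lower in macrophages within all 6 mice, at -0.61 ± 0.09 (SE), adjusted p = 8.82e-06.

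The hypoxia targets that passed were lower in macrophages apart from P4ha2 and Egln1. Vegfa was at 118, 101, 175, 92.4, 154 and 139.9 CPM in macrophages and 165, 153, 211, 147, 217 and 177 in monocytes. The ranges overlapped, yet monocytes were higher within all 6 mice, at -0.57 ± 0.05 (SE), adjusted p = 1.54e-09. Ndrg1 was at 14.5, 33.7, 34.0, 25.6, 41.6 and 46.1 and 40.2, 41.8, 55.1, 48.8, 73.2 and 68.0, lower in macrophages of all 6 mice, at -0.86 ± 0.12 (SE), adjusted p = 1.89e-04. Egln3 was at 7.51, 12.9, 12.9, 10.2, 15.5 and 16.8 and 8.83, 12.9, 15.5, 14.96, 24.6 and 29.2. In Untreated 2 the levels of the 2 types were nearly equal, and the difference was -0.54 ± 0.11 (SE), adjusted p = 2.75e-04. Ankrd37 was at 9.92, 15.3, 13.6, 14.8, 18.0 and 20.6 and 18.9, 17.9, 17.9, 19.9, 24.0 and 24.0, at -0.52 ± 0.10 (SE), adjusted p = 9.31e-05. Both genes had overlapping ranges, with macrophages lower in at least 5 of the 6 mice. Higd1a was at 159, 179, 171, 157, 173 and 178 and 175, 172, 189, 167, 189 and 202, a small difference of -0.20 ± 0.04 (SE), adjusted p = 4.04e-04, with Untreated 2 the only mouse higher in macrophages. P4ha2 was at 4.81, 6.74, 6.82, 5.92, 8.35 and 8.64 and 2.45, 1.08, 2.24, 2.62, 2.05 and 3.47, higher in macrophages without overlap at 1.50 ± 0.21 (SE), adjusted p = 2.29e-06, though every value lay below the free RNA level of 13.0.

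With all clusters included, the lower enzymes barely differed between these types. Ldha was higher in macrophages by 0.16, Gapdh by 0.11 and Pdk1 by 0.25 on the log2 scale (adjusted p = 0.00137, 0.0129 and 0.00615), and Egln1 by 0.18 (adjusted p = 0.043). Pkm, Hk1, Pfkl, Eno1, Kdm3a and Bnip3l were lower by between -0.31 (Kdm3a) and -0.16 (Pkm). Aldoa, Gpi1, Tpi1, Pgk1, Pgam1, Pfkfb3, Bnip3, Ero1a, P4ha1, Mif and Hilpda did not pass. Some calls were lost, with an adjusted p of 0.05 or more, under other settings. Egln1 was lost under DESeq2, RLE size factors, a fit without the mouse as a block, 1 joint fit of 5 cell types, and without N297A 1, Untreated 1 or Untreated 2. Gapdh was lost under DESeq2, no block, the joint fit and without N297A 2 or Untreated 2, and Eno1 with no block and without N297A 1 or Untreated 1. Egln3 and Pkm were lost with no block, Pdk1 under DESeq2, Pfkl with no filter, and Ldha and P4ha2 under the joint fit. In the most populous cluster of each type, Pfkp, Hk2, Pfkfb4, Ankrd37, Egln3, P4ha2, Hk1, Pfkl, Pkm, Pdk1, Kdm3a, Bnip3l and Egln1 were lost. Aldoa, Gpi1, Tpi1, Pgk1, Pgam1, Pfkfb3, P4ha1, Mif and Hilpda were gained in that setting. Some calls also depended on macrophage clusters 9, 11 and 39. Without their cells, an alternative chosen after the data were seen, 28 members were called, of which 17 had been called before, and P4ha2, Ldha, Gapdh, Pdk1 and Egln1 no longer passed.

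**Figure D4:**
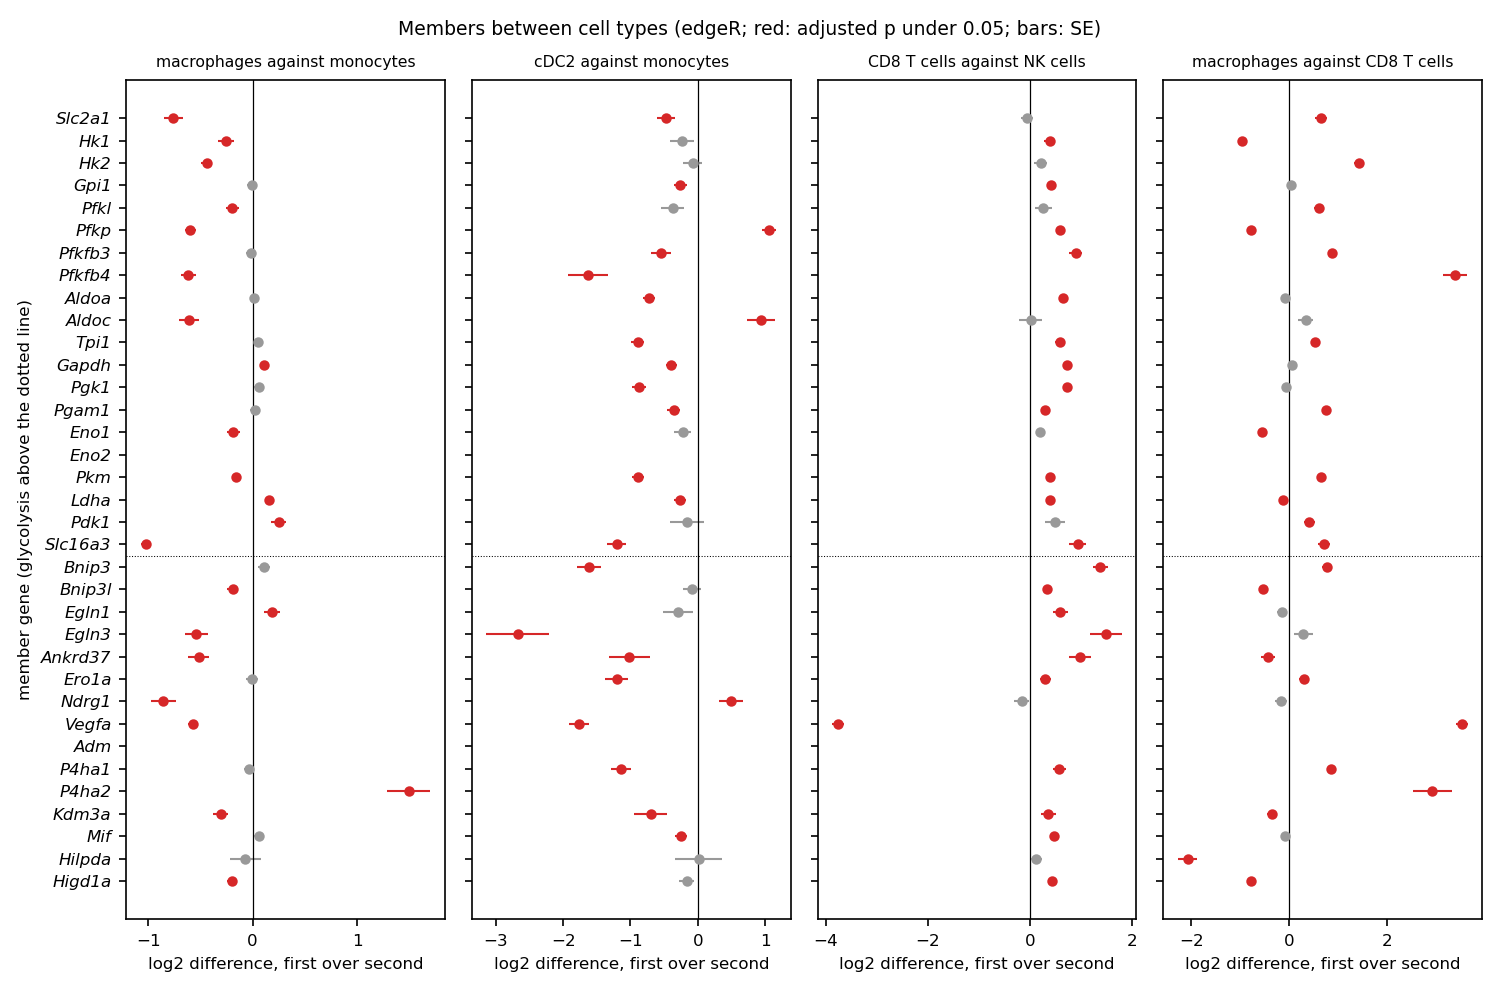
Log2 difference of each member (rows) in 4 comparisons of cell types, with its standard error over 6 mice as a line; red points have an adjusted p under 0.05 (edgeR) and grey points do not. Vegfa lies at -3.77 in CD8 T cells against NK cells and at 3.53 in macrophages against CD8 T cells, and most points of cDC2 against monocytes lie left of 0.

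In cDC2, dendritic cells that present antigen to CD4 T cells, the members were mostly lower than in monocytes. Of 32 members tested, 20 were lower and 3 higher, where 16.9% and 17.6% of 9179 genes were lower and higher. The median difference was -0.39 over the members and 0.00 over all genes. cDC2 had a median of 11240 UMIs per cell and 200 cells in all, so single mice rest on few UMIs. Vegfa was at 47.8, 64.0, 56.2, 42.2, 43.8 and 39.3 CPM in cDC2, far under monocytes in every mouse, at -1.76 ± 0.15 (SE), adjusted p = 8.89e-11. Bnip3 was at 51.2, 30.6, 29.8, 15.1, 34.6 and 30.9 in cDC2 and 77.3, 107, 96.8, 75.9, 133 and 137 in monocytes, without overlap, at -1.62 ± 0.18 (SE), adjusted p = 3.48e-08. P4ha1 was at 64.8, 64.0, 44.6, 27.2, 57.7 and 70.3 and 113, 132, 126, 125, 141 and 130.2, at -1.14 ± 0.15 (SE), adjusted p = 7.36e-07. Ero1a was at 41.0, 36.2, 38.0, 21.1, 27.7 and 39.3 and 62.1, 74.9, 88.8, 65.4, 92.5 and 120.4, at -1.21 ± 0.17 (SE), adjusted p = 1.77e-06. These targets were lower in cDC2 of all 6 mice, with no overlap. Egln3, at 3.41, 5.57, 0, 3.02, 2.31 and 2.81 in cDC2 on 6 UMIs in all, differed by -2.67 ± 0.47 (SE), adjusted p = 3.55e-05, and Ankrd37, at 10.2, 8.35, 3.31, 9.05, 11.5 and 16.9, by -1.02 ± 0.30 (SE), adjusted p = 0.00864. Ndrg1 was the only hypoxia target higher in cDC2 (0.49, adjusted p = 0.0375, higher in 4 of 6 mice). That call was lost under DESeq2, RLE size factors, no filter, no block, the joint fit, without the 5% of cells with the most UMIs, and without N297A 1, N297A 2 or Untreated 2. Mif and Kdm3a were lower (-0.25 and -0.70), but Kdm3a was lost without Untreated 2, either N297A mouse or the GITR/Syn GA-aFuc mouse, Mif without all of these but N297A 2 and with no block, and Ankrd37 without N297A 1.

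Of the glycolysis genes in cDC2, 12 were lower and 2 higher. Pfkp was at 239, 331, 294, 281, 325 and 357 CPM in cDC2 and 151, 137, 168, 149, 184 and 155 in monocytes. It was higher in cDC2 of all 6 mice, without overlap, at 1.06 ± 0.10 (SE), adjusted p = 1.73e-09. Aldoc was higher too (0.94, adjusted p = 5.26e-04). Pkm, pyruvate kinase, was at 461, 365, 410.1, 483, 485 and 422 and 761, 880.3, 872, 815, 934 and 992, lower without overlap at -0.89 ± 0.09 (SE), adjusted p = 2.44e-09. Tpi1 was at 212, 214, 227, 214, 245 and 211 and 376, 450.4, 424, 426, 468 and 514, at -0.89 ± 0.09 (SE), adjusted p = 1.12e-08. Slc16a3 was at 64.8, 38.97, 77.7, 57.3, 53.1 and 67.5 in cDC2, at -1.20 ± 0.14 (SE), adjusted p = 5.82e-08. The groups of these 3 genes did not overlap. Pgk1 was at 198, 184, 222, 223, 198 and 205 and 317, 421, 398, 364, 446 and 503, at -0.87 ± 0.10 (SE), adjusted p = 7.25e-08, and Aldoa was at 396, 373, 344, 462, 464 and 509 and 592, 761, 746, 697, 819 and 902, at -0.72 ± 0.09 (SE), adjusted p = 1.21e-07. For Pgk1 and Aldoa too, all cDC2 values lay below all monocyte values. Gapdh, Pfkfb3, Pfkfb4, Slc2a1, Pgam1, Ldha and Gpi1 were lower as well, by -0.26 (Gpi1) to -1.63 (Pfkfb4), and Hk1, Hk2, Pfkl, Eno1 and Pdk1 did not pass. Gpi1 was lost when Untreated 2, N297A 1 or either Fc-enhanced mouse was left out, and Ldha without Untreated 2 or N297A 1.

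CD8 T cells and NK cells are both cytotoxic lymphocytes, and the members were mostly higher in CD8 T cells. Of 31 members tested, 22 were higher and 1 lower, where 16.1% and 17.0% of 8695 genes were higher and lower. The median difference was 0.41 over the members and -0.01 over all genes. The depth of the types was close, with medians of 8158 and 7880 UMIs per cell, and the cycling markers summed to 1096 CPM in CD8 T cells and 559 in NK cells; their part in the differences was not tested. Vegfa was the exception. It was at 15.4, 11.6, 12.01, 12.2, 11.3 and 9.78 CPM in CD8 T cells and 191, 159, 177, 186, 108 and 149.6 in NK cells. The lowest NK value was several times the highest CD8 value, at -3.77 ± 0.12 (SE), adjusted p = 1.29e-18. The macrophage marker sum was 723 in NK cells and 957 in CD8 T cells. The part of admixed cells in the Vegfa levels was not tested.

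Among the enzymes, Gapdh was at 1568, 2128, 1511, 1939.7, 1991 and 1786 CPM in CD8 T cells and 951, 1126, 975, 1041, 1122 and 1073 in NK cells, without overlap, at 0.74 ± 0.05 (SE), adjusted p = 3.56e-11. Pgk1 was at 432, 576, 398, 558, 564 and 466 and 235, 293, 249, 305, 342 and 315, at 0.73 ± 0.07 (SE), adjusted p = 2.20e-09. Aldoa was at 772, 1095, 742, 907, 1026 and 943 and 453, 572, 499, 565, 622 and 640.1, at 0.66 ± 0.06 (SE), adjusted p = 2.55e-09. These 3 enzymes were higher in CD8 T cells of every mouse. Pfkp was at 173, 221, 182, 211, 215 and 205 and 125, 106, 142, 134, 117 and 143, at 0.60 ± 0.08 (SE), adjusted p = 3.13e-06. Pfkfb3 was at 57.8, 68.4, 59.6, 60.1, 59.4 and 59.4 and 27.4, 28.2, 33.7, 42.8, 30.8 and 24.5, at 0.90 ± 0.13 (SE), adjusted p = 3.52e-06. Pkm was at 509, 712, 493, 545, 615 and 521 and 342, 449, 405, 407, 457 and 427, at 0.39 ± 0.06 (SE), adjusted p = 2.12e-05. None of these 6 enzymes had overlapping groups. Ldha, Gpi1, Tpi1, Slc16a3, Pgam1 and Hk1 were also higher, by 0.29 (Pgam1) to 0.94 (Slc16a3). Slc2a1, Hk2, Pfkl, Aldoc, Eno1 and Pdk1 did not pass.

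Among the hypoxia targets, Bnip3 was at 59.5, 67.2, 51.4, 80.8, 82.0 and 105 CPM in CD8 T cells and 18.3, 14.1, 32.7, 25.2, 33.2 and 40.5 in NK cells, without overlap, at 1.39 ± 0.14 (SE), adjusted p = 2.08e-08. Mif was at 743, 1019, 715, 921, 869 and 803 and 490.1, 599, 575, 575, 645 and 643, at 0.47 ± 0.06 (SE), adjusted p = 2.40e-06, all below the free RNA level. Egln3 was at 9.36, 12.7, 9.13, 15.04, 11.3 and 8.38 and 1.96, 6.03, 4.08, 2.29, 4.92 and 3.68, at 1.49 ± 0.31 (SE), adjusted p = 4.98e-04. Levels of Egln3 were low in both types, but no NK value reached a CD8 value. P4ha1 was at 78.2, 85.8, 63.0, 101, 61.5 and 81.0 and 42.5, 32.2, 39.8, 78.0, 49.8 and 61.3, with 1 high NK value in N297A 2, at 0.58 ± 0.12 (SE), adjusted p = 6.23e-04. Ankrd37 was at 20.9, 22.0, 17.3, 15.98, 19.8 and 32.1 and 7.19, 7.04, 12.2, 14.5, 8 and 13.5, without overlap, at 0.98 ± 0.22 (SE), adjusted p = 9.53e-04. Higd1a, Bnip3l, Egln1, Ero1a and Kdm3a were higher by 0.30 (Ero1a) to 0.60 (Egln1). Kdm3a passed in only 1 fit with a mouse left out, that without Untreated 1. Ero1a was lost without GA-aFuc or either N297A mouse, Egln3 without GA-aFuc or Untreated 1, and Hk1 without N297A 1. Ero1a and Kdm3a were also lost under DESeq2, with no block and under the joint fit, and Hk1 under DESeq2. Without the 5% of cells with the most UMIs, Egln3, Ero1a and Hk1 were lost. In the most populous cluster of each type, Ankrd37, Egln1, Egln3, Ero1a, Hk1, Kdm3a and Slc16a3 were lost. Hilpda, high in both types, was at 368, 216, 378, 257, 277 and 438 and 248, 223, 274, 275, 329 and 347, and neither it nor Ndrg1 passed. Within these types the deposited clusters spanned a wide range. CD8 cluster 33 had sums of 7559 (glycolysis) and 2479 (hypoxia targets) and cluster 23 had 3306 and 1127, while Hilpda went from 517 to 69.3. In NK cells Vegfa was at 118 in cluster 58, which had the highest glycolysis sum of 5665. It was at 199 in cluster 26, which had the lowest of 2561. Cluster 58 had 49 cells, as few as 1 in a mouse, and its glycolysis sum ranged from 3545 to 11318 over mice. Its cycling markers summed to 3339, against 75.1 to 149 in the other NK clusters. The part of cycling in these values was not tested.

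Macrophages and CD8 T cells had glycolysis sums within 1 SD of each other, and Gapdh, Aldoa, Ldha and Pkm carried most of both, while the hexokinases and phosphofructokinase genes differed. Of 33 members tested, 15 were higher and 9 lower in macrophages, where 36.8% and 33.2% of 11782 genes were higher and lower (70.0% in all), so the count is near that of all genes. The median difference was 0.29 over the members and 0.04 over all genes. Macrophage cells held a median of 15222 UMIs and CD8 T cells 8158. Hk2 was at 85.5, 84.2, 98.8, 86.1, 119.9 and 91.7 CPM in macrophages and 39.6, 35.9, 26.9, 39.5, 41.7 and 39.1 in CD8 T cells, higher without overlap at 1.44 ± 0.10 (SE), adjusted p = 6.73e-13. Hk1 was at 35.4, 41.4, 40.2, 37.4, 46.4 and 36.0 and 73.2, 80.0, 89.4, 87.4, 82.7 and 69.1, lower without overlap at -0.95 ± 0.08 (SE), adjusted p = 1.05e-10. The 2 hexokinases thus differed in opposite directions. Pfkfb4 was at 22.0, 18.6, 21.3, 19.5, 19.8 and 23.2 and 3.30, 1.16, 0.961, 1.88, 0.707 and 4.19, at 3.40 ± 0.25 (SE), adjusted p = 2.57e-12, with 18 UMIs in CD8 T cells. Pfkfb3 was at 113, 94.95, 103, 101, 114 and 103 and 57.8, 68.4, 59.6, 60.1, 59.4 and 59.4, at 0.88 ± 0.08 (SE), adjusted p = 3.02e-10. Both were higher in macrophages without overlap. Pfkp was at 104, 114, 118, 101, 121 and 108 and 173, 221, 182, 211, 215 and 205, lower at -0.77 ± 0.07 (SE), adjusted p = 2.19e-10, and Pgam1 was at 387, 503, 445, 451, 449.6 and 480.5 and 255, 289, 259.5, 311, 305 and 277, higher at 0.75 ± 0.06 (SE), adjusted p = 6.10e-11. Neither of these pairs overlapped. Pkm, Tpi1, Pfkl, Slc16a3, Slc2a1 and Pdk1 were higher by 0.42 (Pdk1) to 0.71 (Slc16a3), and Eno1 was lower by -0.55. Ldha, at -0.13, passed in the reported fit but not under DESeq2, RLE size factors, no filter, no block, without the 5% of cells with the most UMIs, or with any 1 mouse left out other than the GITR/Syn GA-aFuc mouse.

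The hypoxia targets split as well. Vegfa was higher in macrophages at 3.53 ± 0.12 (SE), adjusted p = 2.76e-19, with the values given above and no overlap. P4ha1 was at 113, 137, 126, 139, 139.7 and 149 CPM in macrophages and 78.2, 85.8, 63.0, 101, 61.5 and 81.0 in CD8 T cells, higher at 0.86 ± 0.09 (SE), adjusted p = 1.63e-09. P4ha2, at 0.550, 0, 0.961, 1.88, 0 and 2.10 in CD8 T cells on 8 UMIs, was higher in macrophages at 2.93 ± 0.40 (SE), adjusted p = 3.29e-07. Bnip3 and its relative Bnip3l differed in opposite directions. Bnip3 was at 88.7, 121, 129, 105, 139.8 and 134 and 59.5, 67.2, 51.4, 80.8, 82.0 and 105, higher in macrophages of all 6 mice at 0.78 ± 0.10 (SE), adjusted p = 1.78e-06, but without clusters 9, 11 and 39 it did not pass, nor did Slc2a1 or Pdk1. Bnip3l was at 82.8, 92.6, 91.1, 85.9, 94.3 and 96.8 and 128, 158, 132, 148, 129 and 139, lower without overlap at -0.54 ± 0.07 (SE), adjusted p = 2.17e-07. Higd1a was at 159, 179, 171, 157, 173 and 178 and 274, 376, 284, 338, 298 and 286, lower without overlap at -0.78 ± 0.07 (SE), adjusted p = 1.18e-10. Hilpda was lower by -2.07 and Kdm3a by -0.35 (adjusted p = 1.11e-04 and 0.00414, edgeR), with Ankrd37 lower and Ero1a higher. Ankrd37 was lost with no filter, no block, without Untreated 1 and without the 5% of cells with the most UMIs. Kdm3a was lost with no filter, Ero1a with no block and P4ha2 under the joint fit. In the most populous cluster of each type, Ankrd37, P4ha2, Bnip3, Pdk1, Pfkl, Slc2a1 and Tpi1 were lost. Aldoa, Aldoc, Gapdh, Pgk1, Gpi1, Egln1, Egln3, Ndrg1 and Mif did not pass.

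Other genes of the pathway were taken from lists, and levels below are means ± SD over 6 mice, first type against second. Their counts are read against the shares of all genes called in the same comparison, given above and repeated here: 29.6% higher and 29.2% lower for macrophages against monocytes, 17.6% and 16.9% for cDC2 against monocytes, 16.1% and 17.0% for CD8 T cells against NK cells, and 36.8% and 33.2% for macrophages against CD8 T cells. In macrophages against monocytes, 2 of 10 genes of HIF and its regulators were higher and 3 lower. Hif1a, the oxygen-regulated HIF subunit, was lower (134 ± 22.5 against 312 ± 49.97, log2 -1.32), as were its partner Arnt (54.1 ± 3.32 against 68.3 ± 3.94, log2 -0.43) and Vhl, which leads HIF to destruction (22.2 ± 1.67 against 33.2 ± 4.49, log2 -0.68). In CD8 T cells against NK cells, 5 of 11 were higher and 0 lower, among them Hif1a (469 ± 88.9 against 165 ± 14.7, log2 1.44), Epas1 (22.9 ± 10.3 against 9.40 ± 5.25, log2 1.27) and Cited2, a HIF antagonist (58.0 ± 9.37 against 30.2 ± 9.45, log2 0.92). In cDC2 against monocytes, 1 of 10 was higher and 2 lower, with Cited2 lower at 44.3 ± 17.1 against 124 ± 17.6, log2 -1.41. In macrophages against CD8 T cells, 4 of 12 were higher and 7 lower, with Hif1a at 134 ± 22.5 against 469 ± 88.9, log2 -1.72 and Epas1 at 0.921 ± 0.334 against 22.9 ± 10.3, log2 -4.48.

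A list of 12 other glycolysis genes held transporters and isoenzymes related to the members. In macrophages against CD8 T cells, 3 of 12 were higher and 4 lower, where 70.0% of all genes were called; Slc2a3, the transporter GLUT3, was lower (3.99 ± 1.07 against 64.0 ± 15.5, log2 -3.91), and Hk3, a hexokinase of myeloid cells, higher (83.7 ± 11.1 against 7.22 ± 4.20, log2 3.72). In CD8 T cells against NK cells Slc2a3 was the 1 gene of 6 that was called (64.0 ± 15.5 against 19.98 ± 4.77, log2 1.57). In cDC2 against monocytes 1 of 6 was higher and 4 lower, with Hk3 at 22.5 ± 10.4 against 106 ± 22.4, log2 -2.11, and in macrophages against monocytes 3 of 12 were higher and 3 lower. Of genes for the fate of pyruvate, 1 of 9 was higher and 2 lower in macrophages against monocytes, with Pdk3 at 25.9 ± 2.85 against 38.4 ± 3.42, log2 -0.67. In cDC2 against monocytes 2 of 7 were higher and 0 lower, both carriers of pyruvate into mitochondria: Mpc1 (233 ± 29.0 against 157 ± 15.9, log2 0.69) and Mpc2 (136 ± 9.11 against 111 ± 10.3, log2 0.41). In CD8 T cells against NK cells 0 of 7 were higher and 1 lower, and in macrophages against CD8 T cells 3 of 9 were higher and 2 lower.

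The pentose phosphate genes had 1 of 7 higher and 4 lower in macrophages against monocytes, with Taldo1 at 321 ± 18.3 against 417 ± 38.97, log2 -0.47. In cDC2 against monocytes 2 of 7 were higher and 2 lower, with Taldo1 up (739.9 ± 54.2 against 417 ± 38.97, log2 0.94) and Pgd down (54.6 ± 21.5 against 140.3 ± 15.3, log2 -1.26). In macrophages against CD8 T cells 4 of 7 were higher and 3 lower, with Pgd at 136 ± 7.85 against 35.9 ± 7.83, log2 2.02, and in CD8 T cells against NK cells 2 of 7 were higher and 1 lower. Of other hypoxia targets, 5 of 20 were higher and 7 lower in macrophages against monocytes, where 58.8% of all genes were called, with Bhlhe40 at 34.3 ± 10.01 against 78.7 ± 15.3, log2 -1.31 and Cxcr4 at 76.95 ± 18.9 against 137 ± 13.0, log2 -0.96. In cDC2 against monocytes 1 of 19 was higher and 11 lower, with Plin2, which coats lipid droplets, at 68.2 ± 18.9 against 312 ± 44.9, log2 -2.07 and Rab20 at 23.1 ± 9.51 against 126 ± 8.65, log2 -2.37. In CD8 T cells against NK cells 3 of 16 were higher and 5 lower, with Mxi1 at 201 ± 40.3 against 39.3 ± 5.94, log2 2.27. In macrophages against CD8 T cells 10 of 20 were higher and 8 lower, where 70.0% of all genes were called, with Rassf4 at 102 ± 8.67 against 3.08 ± 1.65, log2 5.09.

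The treatments were compared within 5 populations: macrophages, monocytes, all dendritic cells together (DC), NK cells and CD8 T cells. No member passed the adjusted threshold in any of the 20 comparisons (edgeR), while 0.0540% of genes did for N297A against Untreated, 0.0829% for GA-aFuc, 0.0867% for GITR/Syn GA-aFuc and 0.0694% for the 2 Fc-enhanced mice against the other 4. With 1 or 2 mice per treatment the fit left 2 residual degrees of freedom, and the spread of the lone mice was taken from the groups of 2. Fewer cells of a state and less RNA per cell cannot be told apart in such sums. At an unadjusted p under 0.05, the contrast of the Fc-enhanced mice had 15 of 33 members in monocytes (7.41% of all genes), 11 of 30 in NK cells (6.55%), 4 of 34 in macrophages (4.81%), 2 of 31 in CD8 T cells (4.24%) and 0 of 29 in DC (3.54%), where 5.39% of genes lay there over the 5 types. For N297A against Untreated the counts were 3 in monocytes, 2 in NK cells and 0 in each of the other 3 types, where 3.89% of genes lay there over the 5 types. For GA-aFuc they were 9 in monocytes, 9 in NK cells, 3 in macrophages, 2 in DC and 0 in CD8 T cells (5.28%), and for GITR/Syn GA-aFuc 13, 8, 2, 0 and 4 (5.42%). DESeq2 called 1 member, Hilpda in monocytes, for GITR/Syn GA-aFuc and for the Fc-enhanced contrast, and 0 for the other contrasts. Leaving out 1 mouse also changed these counts. Without N297A 1, Hilpda, Adm and Vegfa in macrophages and Hilpda in monocytes passed in the Fc-enhanced contrast, with Hilpda in macrophages at 1.21 (adjusted p = 1.55e-06). Without Untreated 2, Bnip3, Egln3 and Ndrg1 in monocytes passed, and without Untreated 1 Egln3 did. Without N297A 2, Hilpda (1.29, adjusted p = 1.98e-05) and Vegfa (0.66, adjusted p = 0.0138) in macrophages passed for N297A 1 against Untreated. Hilpda in macrophages was at 49.9, 43.4, 115, 42.0, 96.1 and 112 CPM, with N297A 1 far above N297A 2.

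The sums by mouse show the same pattern. In monocytes the glycolysis genes summed to 5572, 6416, 6366, 5892, 6895 and 7098 CPM and the hypoxia targets to 1430.0, 1656, 1753, 1495, 1912 and 1914. The last 2 values, from the Fc-enhanced mice, were above the other 4 in both lists. In NK cells the sums were 3734, 4294, 3918, 4272, 4624 and 4588 and 1440.2, 1526, 1577, 1626, 1678 and 1837, again with the Fc-enhanced mice highest in both. In macrophages the glycolysis sums were 5668, 7391, 6328, 6668, 6946 and 7306, which overlap, and the hypoxia target sums 1409, 1739, 1739.9, 1585, 1884 and 1902, in which the Fc-enhanced mice were highest. Without clusters 9, 11 and 39 the macrophage hypoxia target sums were 1220, 1421, 1369, 1297, 1409 and 1408, and the groups overlapped. In CD8 T cells the sums were 5635, 7581, 5477, 6747, 7067 and 6233 and 1862, 2163, 1859, 2104, 1958 and 2146, with overlap in both. Untreated 1 had the lowest glycolysis sum in macrophages, monocytes and NK cells.

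**Figure D5:**
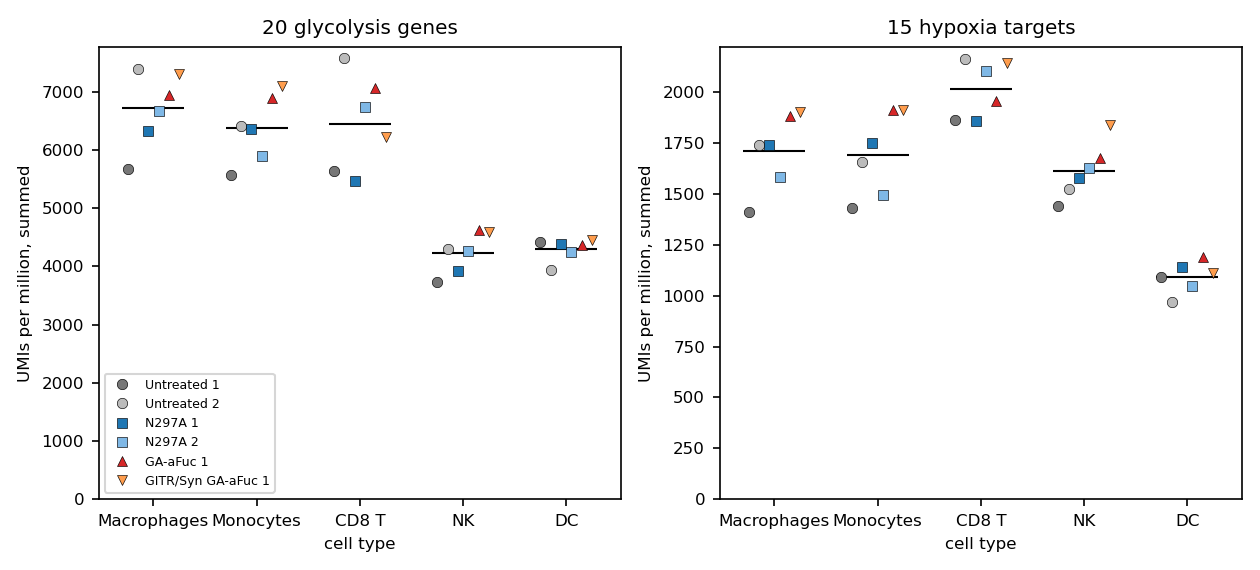
Sums of the 20 glycolysis genes and of the 15 hypoxia target genes in CPM, for each of the 6 mice (points, coloured by treatment) in 5 cell types. Bars mark the mean over all 6 mice of a cell type. The Fc-enhanced mice are the highest 2 for both sums in monocytes and NK cells, and Untreated 2 is the highest for glycolysis in CD8 T cells and macrophages.

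Gene by gene, both Fc-enhanced mice lay above the other 4 for 18 of 33 members in monocytes (10.2% of all genes), 10 of 30 in NK cells (5.67%), 11 of 34 in macrophages (9.23%), 2 of 31 in CD8 T cells (5.90%) and 1 of 29 in DC (6.25%). They lay below for 0 members in monocytes (7.76%) and in macrophages (6.54%), 1 in NK cells (11.2%), 1 in CD8 T cells (6.68%) and 2 in DC (4.87%). The 18 in monocytes were Slc2a1, Hk1, Aldoa, Tpi1, Gapdh, Pgk1, Pgam1, Pkm, Ldha and Slc16a3 among the enzymes and transporters, and Ankrd37, Bnip3, Egln1, Egln3, Ero1a, Higd1a, Hilpda and Ndrg1 among the targets. Macrophages had 9 hypoxia targets (Adm, Ankrd37, Bnip3, Bnip3l, Egln3, Ero1a, Ndrg1, P4ha1 and P4ha2) but only Slc2a1 and Pdk1 of the glycolysis genes. NK cells had Aldoa, Aldoc, Gpi1, Ldha, Pgam1, Pgk1, Bnip3, Higd1a, Hilpda and Mif. Bnip3 is in all 3 lists and in that of CD8 T cells. The median log2 difference of the Fc-enhanced mice was 0.20 over the members in monocytes, 0.25 in NK cells, 0.15 in macrophages, 0.06 in CD8 T cells and -0.01 in DC, against -0.01 over all genes in the first 4 types and -0.03 in DC. The members come from the same cells and mice and are not independent of each other.

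The members nearest to the threshold were in monocytes. Egln3 was at 8.83, 12.9, 15.5, 14.96, 24.6 and 29.2 CPM, the 2 highest values in the Fc-enhanced mice and the lowest in Untreated 1, with a log2 difference of 1.03 ± 0.18 (SE), adjusted p = 0.0562. Ndrg1 was at 40.2, 41.8, 55.1, 48.8, 73.2 and 68.0, where the Fc-enhanced mice were again highest, with 0.60 ± 0.11 (SE), adjusted p = 0.0646. Against Untreated alone, Egln3 differed by 1.14 ± 0.26 (SE), adjusted p = 0.216 in the GA-aFuc mouse and by 1.41 ± 0.25 (SE), adjusted p = 0.0649 in the GITR/Syn GA-aFuc mouse. Ndrg1 differed by 0.82 ± 0.15 (SE), adjusted p = 0.0763 and by 0.74 ± 0.15 (SE), adjusted p = 0.124. These contrasts share the 2 Untreated mice. Hilpda was at 39.2, 54.7, 73.8, 48.8, 93.4 and 138 in monocytes, highest in the GITR/Syn GA-aFuc mouse at 1.56 ± 0.27 (SE), adjusted p = 0.204. The N297A mice, with 0.37 for Ndrg1 and 0.38 for Kdm3a, were above both Untreated mice for these genes (adjusted p = 0.999 for each). Over the alternatives tried, Egln3 in the Fc-enhanced contrast had adjusted p-values of 1.05e-05 to 0.594 with differences of 0.90 to 1.20, and Ndrg1 of 3.45e-04 to 0.948 with 0.55 to 0.65.

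In NK cells Hilpda and Vegfa went apart. Hilpda was at 248, 223, 274, 275, 329 and 347 CPM, with the Fc-enhanced mice highest, at 0.46 ± 0.11 (SE), adjusted p = 0.151; the GA-aFuc mouse against Untreated gave 0.53 ± 0.16 (SE), adjusted p = 0.568. Vegfa was at 191, 159, 177, 186, 108 and 149.6, with the Fc-enhanced mice lowest, at -0.43 ± 0.14 (SE), adjusted p = 0.393; the GA-aFuc mouse gave -0.64 ± 0.19 (SE), adjusted p = 0.568. Neither passed. Bnip3 in NK cells was at 18.3, 14.1, 32.7, 25.2, 33.2 and 40.5, at 0.78 ± 0.32 (SE), adjusted p = 1 for N297A, and Bnip3l at -0.26 ± 0.17 (SE), adjusted p = 1. In DC, whose mregDC markers summed to 1162, 1046, 414, 442, 480.0 and 989, Pfkfb3 was at 98.6, 94.7, 76.1, 67.2, 57.4 and 67.1, lower in every antibody-treated mouse than in both Untreated mice, at -0.43 ± 0.26 (SE), adjusted p = 0.948 for N297A, -0.78 ± 0.33 (SE), adjusted p = 0.963 for GA-aFuc and -0.56 ± 0.32 (SE), adjusted p = 0.999 for GITR/Syn GA-aFuc. The Fc-enhanced contrast gave -0.46 ± 0.23 (SE), adjusted p = 1. The mregDC marker sum was lower in N297A and GA-aFuc mice than in Untreated mice, and mregDC had the highest Pfkfb3 level of the types; its part in the Pfkfb3 values was not tested. Slc2a1 in DC was at 62.1, 69.1, 77.2, 81.4, 61.6 and 54.2, at -0.35 ± 0.24 (SE), adjusted p = 1, and Bnip3 in DC differed by -0.67 ± 0.41 (SE), adjusted p = 0.948 for N297A. In CD8 T cells, 3 differences were among the smallest p-values of the negative ones in their contrast, those of Slc16a3 (-0.79 ± 0.28 (SE), adjusted p = 0.578) and Eno1 (-0.28 ± 0.19 (SE), adjusted p = 0.959) in the GITR/Syn GA-aFuc mouse and of P4ha1 (-0.38 ± 0.25 (SE), adjusted p = 1) in the GA-aFuc mouse.

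Whether a treatment changed the members differently in monocytes and macrophages was tested by an interaction term. No member passed (edgeR), where 0.00558% of the genes did over the 3 treatments, and 2 member tests lay at an unadjusted p under 0.05, against 4.80% of all. The smallest p among members was 0.0155, for Pgam1 in the GA-aFuc mouse, with a difference of 0.34 between the types and an adjusted p of 0.765. Egln3 in the GITR/Syn GA-aFuc mouse differed by 0.73 between the types, with an adjusted p of 0.991. A p that misses the threshold does not show that the types respond alike.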

How the data were processed

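RNA of CD45+ cells from 6 mice was measured in 1 hashed library, with 16479710 to 19339165 mouse UMIs per mouse. The deposited matrix holds raw UMI counts of 38606 human genes, 33696 mouse genes and 6 hashtags, made by the authors with Cell Ranger 9.0.0 on GRCh38 and GRCm39, per the submitters' processing notes. Cell types, clusters and treatments are those of the authors' deposited cell table. Of 19210 table entries, those with at least 1000 mouse UMIs were kept, and 18 repeated barcodes and 33 cells whose top hashtag went with another treatment were left out, leaving 8716. The top hashtag, taken as the mouse, held a median of 96.2% of hashtag UMIs. No source used here says how the authors treated doublets, and no caller was run; an alternative dropped the 5% of cells with the most UMIs. UMIs were summed per mouse and type and tested with edgeR 4.0.16 (R 4.3.3; TMM, filterByExpr, quasi-likelihood), all genes adjusted together at 0.05. Types were compared with the mouse as block, since 1 mouse gave both; treatments were fitted together within a type. The standard error is the log2 difference divided by the root of F. Scripts were tested on simulated data, in which 90 of 94 genes changed 2-fold were recovered for macrophages against monocytes. For N297A against Untreated the fits recovered 64 of 95 in macrophages, 40 of 97 in NK cells and 23 of 97 in DC. For the Fc-enhanced contrast in DC they recovered 34 of 96, so treatment changes of that size could be missed. Unchanged genes called ranged from 7 (N297A, DC) to 38 (N297A, macrophages). Alternatives were DESeq2 1.42.0, RLE size factors, no filter, single mice or the top cell of a gene left out, the most populous cluster alone and other denominators. All 35 members are accounted for; every mouse's value is given for up to 6 of each sublist per comparison with the smallest adjusted p, and, where none passed, for up to 3 in each direction by unadjusted p, and for a few others chosen after their values were seen. Other pathway genes are up to 4 per list by size of change. The members and lists were chosen with earlier results of these data known. Promoter sequences are from RefSeq (GRCm38.p6).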

Additional observations from a re-analysis of the deposited data

How the results depend on the processing

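The counts of members called between cell types stayed within 1.5 times of those reported under DESeq2, RLE size factors, no filter, no cells of the highest 5% by UMIs, a joint fit and each mouse left out. Leaving out a mouse gave 20 to 23 for macrophages against monocytes, 18 to 23 for cDC2 against monocytes, 20 to 24 for CD8 T cells against NK cells and 22 to 26 for macrophages against CD8 T cells. Without the mouse as a replicate block the counts were 17, 21, 21 and 22. In the most populous cluster of each type, 18 members were called for macrophages against monocytes, 9 of them shared with the 22 reported, and Bnip3 in macrophages against CD8 T cells reversed to -0.17 (adjusted p = 0.419, edgeR); the cause was not tested. cDC2 and DC had too few cells for that fit.

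The treatment counts of 0 moved under several settings; the cause was not tested. For GA-aFuc, 3 members were called with no filter on low counts and 0 to 2 with a mouse left out. For GITR/Syn GA-aFuc, DESeq2 called 1, no filter 5, the most populous cluster 1 (Mif in NK cells) and a mouse left out 0 to 2. For the Fc-enhanced contrast the counts were 1, 6, 1 (Mif in NK cells) and 0 to 4, and for N297A a mouse left out gave 0 to 2. With no filter the calls were in monocytes, apart from Hilpda in NK cells for the Fc-enhanced contrast. Averaging over cells in place of summing moved the log2 ratio of the glycolysis sum between macrophages and CD8 T cells from 0.06 to 0.26. The same step moved the hypoxia target ratio of macrophages to CD8 T cells from -0.24 to -0.018, and that of macrophages to monocytes from 0.02 to 0.10. Depth limits the low members (Eno2, Adm, P4ha2 and Egln3 outside macrophages), and 1 or 2 mice per treatment limit every treatment contrast.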
